A study of Mus musculus with 6 samples.

Results

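mmu-miR-210 was measured by 2 probes on microRNA (miRNA) arrays of mouse macrophages with and without RBP-J, and its level was lower on all 3 knockout arrays than on any control array, except with normexp background correction, where the groups overlapped. It is 1 of 611 mouse miRNAs on the array and 1 of the 135 that were well above background on at least 3 of the 6 arrays, the set called tested here. It was chosen by its measured genotype difference, the lowest of the 135, so that its levels and differences are given below as a description, with no test. The study compared macrophages grown from the bone marrow of female C57BL/6 mice, with 3 knockout and 3 control samples, each on its own 1-colour array, all on 1 slide. The design text gives the search for miRNAs downstream of Notch signalling in macrophage polarization as its purpose.

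Knockout animals were MxCre-RBP-Jf/f, with both alleles of the gene floxed, and controls MxCre-RBP-Jf/+, with 1 floxed allele. The sample titles call the latter wild type. Both groups thus carried the Mx-driven Cre, both received poly(I)-poly(C) to switch it on, and the macrophages of both were treated with lipopolysaccharide (LPS), a bacterial wall component, for 24 h. The Mx promoter responds to interferon and is not specific to macrophages. No sample was unstimulated, cultured in low oxygen or free of Cre. The array holds no probe for Rbpj mRNA, so the deletion was not checked. Whether same-group samples came from separate animals or cultures is not given in the labels, so the spread between them may be partly technical.

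miRNAs are short RNAs that guide Argonaute proteins to messenger RNAs, mostly through pairing of their seed, and lower the output of those messengers. miR-210 is the miRNA most regularly induced by low oxygen: its gene is a target of the hypoxia-inducible factor HIF-1, and it represses iron-sulfur cluster scaffold proteins (Iscu) and thereby mitochondrial respiration. In macrophages HIF-1 is also stabilised by LPS, and miR-210 has been described there as a brake on NF-κB1. RBP-J is the nuclear partner that cleaved Notch receptors need in order to switch on their target genes.

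The mature sequences are shown because the array name predates the separate naming of the arms. RefSeq (GRCm38.p6) places the Mir210 hairpin at chr7:141221384-141221493 on the minus strand, where no annotated gene overlaps it. Its nearest named coding neighbours are Rassf7 and Phrf1. In older miRNA catalogues the name miR-210 stands for the 3p arm, and the array had no second entry for the 5p arm. Capitals mark the seed, bases 2 to 8, in the mature arms and the 3p arm in the hairpin.
mmu-miR-210-3p: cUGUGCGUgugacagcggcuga
mmu-miR-210-5p: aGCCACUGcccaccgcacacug
Mir210 hairpin: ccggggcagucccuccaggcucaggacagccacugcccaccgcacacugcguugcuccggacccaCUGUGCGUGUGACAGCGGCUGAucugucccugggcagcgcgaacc

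The seed of miR-210-3p was not shared. Among 1738 mature mouse entries of the RefSeq table, 0 others had the same bases 2 to 8, and 0 others the same bases 2 to 7. The longest run of bases that miR-210-3p had in common with any other entry was 9, in miR-7672-5p. At 63.6% GC it was richer in G and C than the median entry (52.2%).

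The samples carried miRNAs of a macrophage or myeloid list, which was not made to tell macrophages from other myeloid or other blood cells. All 6 on this fixed list (miR-223, miR-142-3p, miR-142-5p, miR-146a, miR-155 and miR-342-3p) were well above background on every array. Their summed level ran from 17.5 to 25.6 in control and from 18.7 to 23.7 in knockout samples, in units of each array's reference percentile. Of 20 markers of erythroid, platelet, lymphoid, endothelial, stromal, epithelial and muscle cells, 0 were well above background on any array, among them miR-451, miR-144, miR-150, miR-126-3p and miR-143. In bulk RNA, fewer miR-210-expressing cells and less miR-210 per cell cannot be told apart. Between 127 and 141 miRNAs were detected per array, and precision is limited by having 3 arrays per group. The summed signal of detected miRNAs was lower in the knockout, at 52975 ± 6613 intensity units (SD, n = 3) against 68812 ± 7472 units (SD, n = 3), and so were the mr_1 brightness control spots, at 677 to 735 against 803 to 932.

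The spots of miR-210 gave 1 picture on both probes. Each probe was printed at 10 positions spread over each array, 120 spots in all, of which 0 were saturated, 6 were set aside as population outliers and 112 were well above background. On probe A_54_P1443, the brighter of the pair and the one used below for the miRNA, the median spot signal was 264 intensity units on control replicate 1, 69.0 on control replicate 2 and 69.5 on control replicate 3. On the knockout arrays it was 39.5, 20.3 and 39.1 for replicates 1, 2 and 3. The controls thus held 1 high array and a pair of nearly equal ones, and the knockouts a pair of nearly equal ones and 1 low array. These values were background-subtracted but not yet scaled between arrays. The control mean was 134.3 ± 113 units (SD, n = 3) and the knockout mean 33.0 ± 10.9 units (SD, n = 3), and the brightest array stood 13.0-fold above the dimmest.

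Probe A_54_P1444 ordered the arrays almost alike. Its medians were 126, 29.9 and 32.8 units on control replicates 1, 2 and 3, and 16.8, 10.01 and 17.6 on knockout replicates 1, 2 and 3. The brightest and dimmest arrays were the same as on the first probe. On knockout replicate 2 only 4 of the 10 spots of this probe were well above background, so that it counted as detected on 3 control and 2 knockout arrays and no fold to that array is given. The first probe had all 10 spots well above background on every array.

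The differences between arrays were much larger than those between spots of 1 array. Among spots not set aside as outliers, the coefficient of variation ran from 3.06% to 13.4% on A_54_P1443 and from 3.44% to 13.3% on A_54_P1444. Among the same spots of A_54_P1443, the dimmest of control replicate 1 read 227 units. The brightest of control replicate 2 read 70.9 and of control replicate 3 read 73.7. The lowest of either of those controls, 65.2, was above the highest of any knockout array, 45.3. On this probe control replicate 2 kept 7 of 10 spots, and those set aside read 59.4, 61.1 and 73.0. The spots of control replicates 2 and 3 overlapped, as did those of knockout replicates 1 and 3, so these neighbours did not differ beyond their spot spread. The spots differed less by position than between arrays. The median over spots in the upper rows was 0.897 to 1.05 times that in the lower rows on A_54_P1443 and 0.895 to 1.11 times on A_54_P1444. In the left columns it was 0.895 to 0.985 times that in the right columns on A_54_P1443, lower on all 6 arrays, and 0.842 to 1.04 times on A_54_P1444. Spots on 1 array share a sample and say nothing about the spread between samples.

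**Figure D1:**
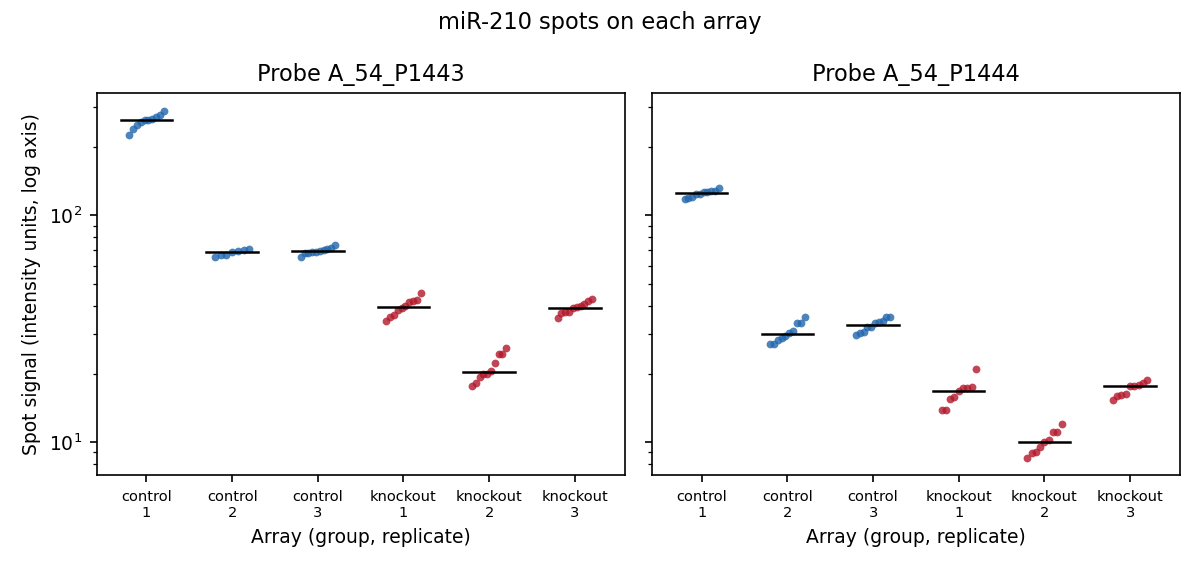
Background-subtracted signal of each unflagged miR-210 spot (y axis, intensity units, log axis) on the 3 control (blue) and 3 knockout (red) arrays, with 1 panel per probe and the median as a black line. Control replicate 1 (264 and 126 units) and knockout replicate 2 (20.3 and 10.01 units) stand apart from the other arrays of their group on both probes.

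The scanner software's own summary over both probes gave the same order of groups. Its total gene signal for miR-210 was 256 units (software error 19.4) on control replicate 1, 65.6 (5.40) on replicate 2 and 66.4 (5.50) on replicate 3. In knockout samples it was 37.2 (3.58), 20.8 (2.46) and 37.9 (3.61), and miR-210 was called detected on all 6 arrays. The lowest control total was above the highest knockout total. As a share of the summed signal of detected miRNAs, miR-210 made up 0.388%, 0.104% and 0.0859% on control replicates 1, 2 and 3, against 0.0639%, 0.0457% and 0.0686% on the knockout replicates. The groups did not overlap in this share either, whose mean in the knockout was 0.308 times that in control. The knockout-to-control ratio of the summed signal was 0.770 and that of the mr_1 spots 0.843, against 0.247 for the miR-210 total. Control replicate 1, with a miR-210 total 3.88 times the mean of the other controls, raises the control means behind the 0.308 and 0.247. The part that the lower array brightness has in the unscaled difference was not tested beyond the scalings that follow.

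After division of each array by its 75th percentile over 200 probes detected everywhere, miR-210 on the log2 scale stood at -0.12, -1.81 and -2.34 in control replicates 1, 2 and 3. The knockout replicates stood at -2.52, -3.20 and -2.53. Knockout replicates 1 and 3 therefore lay close beneath control replicate 3, by 0.18, while control replicate 1 lay far above every other array. Controls averaged -1.43 ± 1.16 (SD, n = 3), while knockouts averaged -2.75 ± 0.39 (SD, n = 3). The difference of -1.32 (limma's moderated SE 0.51) puts control signal at 2.50-fold that of the knockout. That SE borrows from the variances of all tested miRNAs, whose median control SD was 0.22. It is therefore smaller than the spread of miR-210 alone would give. Probe A_54_P1444 alone gave -1.34, with controls averaging -2.55 ± 1.19 (SD, n = 3), knockouts averaging -3.89 ± 0.29 (SD, n = 3) and a gap of 0.26 between the groups. These values include knockout replicate 2 at -4.22, where this probe did not count as detected, so its difference is approximate.

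Across the 135 tested miRNAs, limma's moderated test with Benjamini-Hochberg adjustment called 0 lower (0%) and 0 higher (0%) in the knockout, with 6 at an unadjusted p under 0.05. The fitted mean was at least 2-fold lower for 1 miRNA (0.741%), which was miR-210. All knockout arrays lay below every control array for 4 miRNAs (2.96%): miR-210, let-7e, miR-22* and miR-362-5p, where let-7e and miR-22* had gaps of 0.07 each. miR-362-5p was not well above background on any knockout array, and its knockout values are the floor, so no gap is given. All knockout arrays lay above every control array for let-7d, miR-1224, miR-290-3p, miR-326, miR-342-5p, miR-34a, miR-494, miR-689, miR-715 and miR-92b. The control values of miR-92b are the floor. With 3 arrays per group and no group difference, 10% of miRNAs would on average separate in 1 direction or the other. Such separation by itself is therefore no sign of a genotype difference. As miR-210 was chosen on this contrast, nothing is read from its place in these counts. Next in rank stood miR-125a-5p at -0.53, and the median tested miRNA was at 0.11.

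Division by the median miRNA detected on each array left miR-210 lower in the knockout. On that scale it stood at 2.38, 0.37 and 0.33 (log2) in control replicates 1, 2 and 3 and at -0.20, -0.86 and -0.36 in the knockout replicates. Controls were thus all above the median detected miRNA of their array, and knockouts all below it. Controls averaged 1.03 ± 1.17 (SD, n = 3) and knockouts -0.47 ± 0.34 (SD, n = 3), a difference of -1.50 or 2.82-fold, and the lowest control was 0.52 above the highest knockout. The median itself was 50.8, 53.3 and 55.4 units in control replicates 1, 2 and 3, and 45.2, 36.8 and 50.2 in knockout replicates 1, 2 and 3.

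Other scalings changed the size more than the direction. Of 10 ways of setting the level, 9 kept the groups apart, with gaps from 0.18 to 0.81 and differences from -1.32 to -1.78, the latter with no scaling between arrays. In the authors' deposited series matrix miR-210 stood at 7.78, 6.14 and 5.74 in control replicates 1, 2 and 3 and at 5.45, 4.39 and 5.17 in the knockout replicates, a difference of -1.55. The exception was normexp background correction, which adds an offset of 50 units and compresses dim signals. With it the difference was -0.56 and the groups overlapped, as control replicate 3 at -1.69 lay below all 3 knockout arrays (-1.54, -1.64 and -1.54). Relative to the median tested miRNA the difference was -1.43 as first scaled and -0.79 with normexp.

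**Figure D2:**
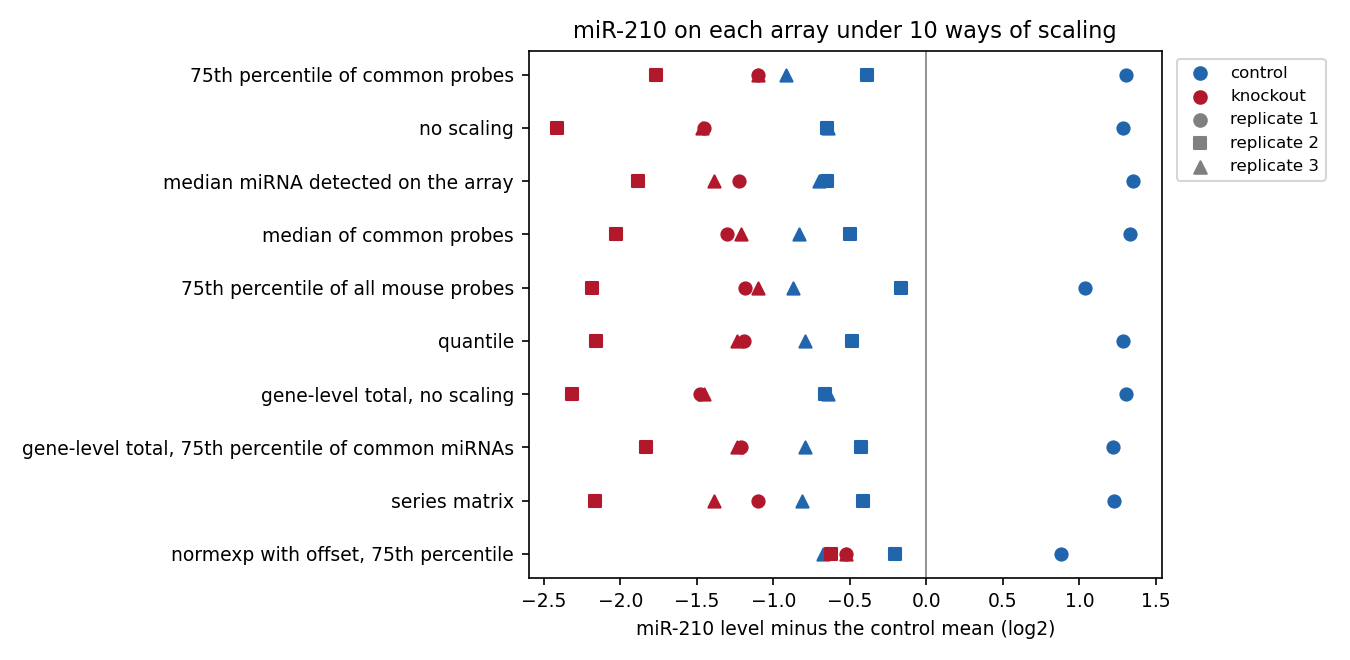
Level of miR-210 on each array minus the control mean (x axis, log2) under 10 ways of scaling or summarising the signal (rows), with controls in blue, knockouts in red and the marker shape giving the replicate number. Control replicate 1 lies furthest right in every row, and the groups are apart in 9 rows and overlap with normexp, where the difference was -0.56.

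The spread of miR-210 among control samples was the widest of any tested miRNA. miR-210 was chosen for its low difference, which a high control array lowers further, so nothing is read from its ranks here. Its control SD of 1.16 ranked 1 of 135 and was followed by miR-483, at 0.82, against a median of 0.22. In the knockout its SD of 0.39 ranked 26, with a median of 0.20. The control spread came from replicate 1, which stood 1.96 (log2) above the mean of the other control arrays, where miR-125a-5p came next at 1.08. Unscaled, the ratio of control replicate 1 to the other controls was 3.82 on A_54_P1443 and 4.002 on A_54_P1444. The same ratio was 1.16 for the mr_1 brightness spots and 0.939 for the summed miRNA signal. The part of array brightness in the high value was not tested. The miRNAs next in control SD, miR-483, miR-721, miR-1897-5p and miR-680, had their lowest control value on replicate 1, where miR-210 was highest. This did not hold further down: miR-125a-5p (SD 0.63) and miR-223 (SD 0.53), named here after their values were seen, were highest among the controls on replicate 1.

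**Figure D3:**
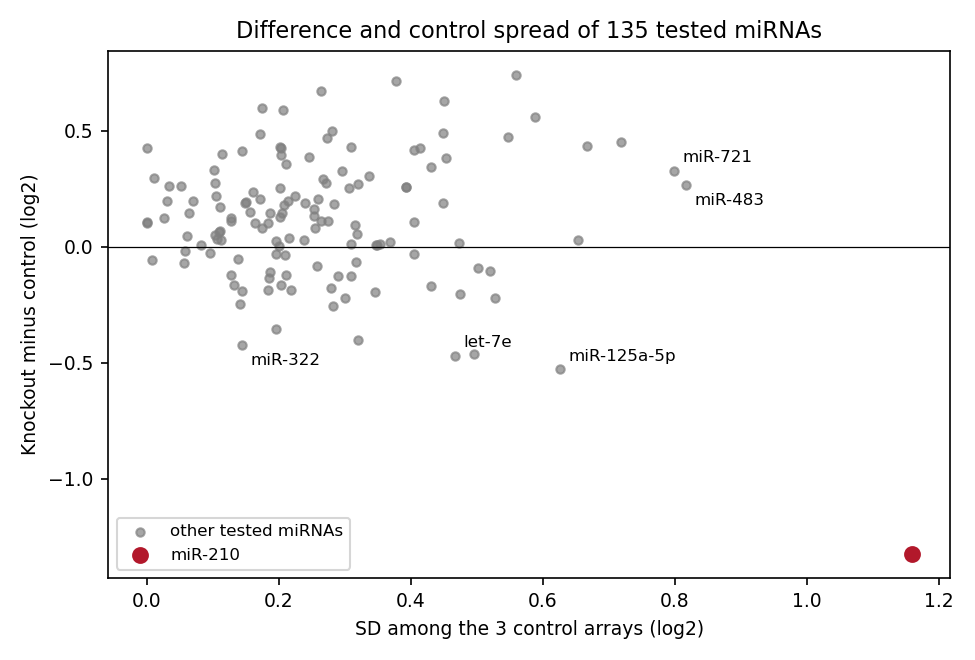
Knockout-minus-control difference (y axis, log2) against the SD among the 3 control arrays (x axis, log2) for each of 135 tested miRNAs. miR-210 (red) has the lowest difference, -1.32, and the largest control SD, 1.16. It was chosen for that difference, which a high control array lowers further.

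The size of the difference leaned on that array. Without control replicate 1, with the scaling kept, it was -0.67 (SE 0.29), or 1.59-fold, and miR-210 was still the lowest of 135. Leaving out any other array gave -1.10 (without knockout replicate 2) to -1.78 (without control replicate 3). Without both control replicate 1 and knockout replicate 2, the highest and lowest arrays for miR-210, a setting chosen after seeing the data, the difference was -0.45 and 2 miRNAs were lower, miR-27b lowest at -0.58. The 4 arrays in column 1 of the slide gave -1.89, and the pair in column 2, control replicate 3 and knockout replicate 3, gave -0.19. That pair differed by -0.69 after division by the median detected miRNA, by -0.83 with no scaling and by 0.15, the opposite way, with normexp. On the slide, knockout arrays filled rows of their own, each next to its same-numbered control, so slide row and genotype cannot be told apart.

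For each tested miRNA the values on the 6 arrays, centred on their mean, were set beside those of miR-210. Pearson's r ran from -0.95 to 0.96 over the other 134, with 10 above 0.8 and 9 below -0.8. All points share the scaling, and 1 high array weighs heavily in such an r, so the values describe likeness over 6 arrays and no more. The highest were miR-362-5p (r = 0.96), miR-22* (0.93), let-7e (0.91), miR-99a (0.91) and miR-350 (0.89). Without control replicate 1 these were 0.83 for miR-362-5p, 0.79 for miR-22*, 0.38 for let-7e and 0.92 for miR-350, while miR-99a stood at the floor on the remaining 5 arrays and had none.

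None of these miRNAs matched the range of miR-210. miR-22*, the passenger strand of miR-22, stood at -3.30, -3.66 and -3.61 in control and -3.73, -3.99 and -3.92 in knockout replicates 1, 2 and 3. miR-350 ran only from -2.31 to -1.98 over all arrays. miR-362-5p was at the floor on all 3 knockout arrays. By size as well as shape, as the root mean square distance between centred values, the nearest was miR-125a-5p at 0.60, then let-7e at 0.65, miR-99b at 0.67, the myeloid miR-223 at 0.68 and miR-22* at 0.76. The first 3 are processed from neighbouring genes of 1 cluster.

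Beneath its high control replicate 1, miR-125a-5p was nearly flat. It stood at -0.27, -1.41 and -1.28 in control replicates 1, 2 and 3 and at -1.38, -1.43 and -1.73 in the knockout replicates. miR-223 stood at 3.46, 2.82 and 2.42 in control and at 2.59, 2.46 and 2.99 in knockout, so its groups overlapped. Of the 135 tested miRNAs, 25 (18.5%) had their highest value on control replicate 1, 9 (6.67%) their lowest on knockout replicate 2, and 3 (2.22%) both. The 3 were miR-210, miR-22* and miR-350. A tie at the floor was counted for its first array only, controls before knockouts. miR-362-5p and miR-99a, tied at the floor on knockout replicate 2, are therefore not among the 9.

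The most opposite patterns were those of miR-1224 (r = -0.95), miR-1897-5p (-0.94) and miR-185 (-0.94). miR-1224 stood at 3.12, 3.54 and 3.66 in control replicates 1, 2 and 3 and at 3.93, 3.94 and 3.94 in the knockouts, which is a narrow knockout group above every control. miR-1897-5p was at -1.32 on control replicate 1 and between -0.24 and 0.04 on the other 5 arrays. miR-185 was at -3.80 on control replicate 1 and between -3.37 and -2.98 elsewhere.

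**Figure D4:**
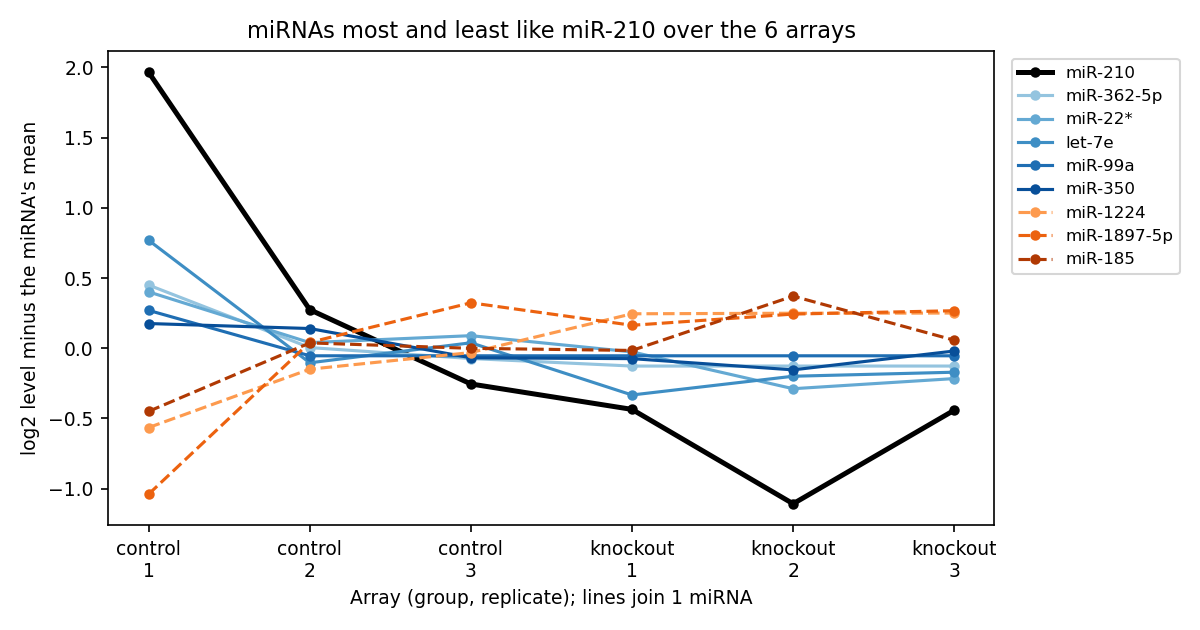
Level on each array minus the miRNA's own mean (y axis, log2) for miR-210 (black), the 5 miRNAs with the highest r (blue) and the 3 with the lowest (orange, dashed), over the 6 arrays (x axis; lines join values of 1 miRNA and imply no order). On control replicate 1 the blue lines are high with miR-210 and the orange lines low, while on knockout replicate 2 no blue line falls as far as miR-210.

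A list of 21 other miRNAs reported to rise in low oxygen was read from the same fit, which called 0 of all 135 tested miRNAs. Of the list, 20 were on the array and 18 were tested, and 0 passed limma's test in either direction (over all tested miRNAs, the smallest adjusted p in the list was 0.637, and 0 had an unadjusted p under 0.05, against 6 of all 135). In the fit 9 were higher and 9 lower, against 97 and 38 of all tested miRNAs, with a median difference of -0.0040 against 0.11. These splits turned with the scaling: with none between arrays 0 of the list were higher and 18 lower, against 14 and 121 of all tested. In the list 0 had all knockout arrays below every control, against 4 of all 135. At the ends stood miR-181b at 0.43 (SE 0.27) and miR-322, the mouse counterpart of human miR-424, at -0.42 (SE 0.26). miR-23b and miR-27b, of 1 cluster, were at -0.25 (SE 0.18) and -0.20 (SE 0.25).

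miR-322 lacked a clean separation. It stood at -2.80, -2.52 and -2.73 in control replicates 1, 2 and 3 and at -3.39, -3.42 and -2.52 in the knockouts, so knockout replicate 3 lay level with the highest control. miR-181b stood at -3.82, -3.21 and -3.40 in control and at -3.46, -2.54 and -3.15 in knockout, also overlapping. The member of this list induced by LPS as well, miR-155, was at 2.50, 2.31 and 2.08 in control and 2.57, 2.12 and 2.08 in knockout, a difference of -0.04 (SE 0.20). miR-146a, an NF-κB-induced brake on Toll-like receptor signalling, was at 2.05, 1.17 and 1.77 in control and 1.77, 1.48 and 2.30 in knockout, 0.19 apart (SE 0.28). These LPS-induced miRNAs thus overlapped between genotypes.

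A second list held 10 miRNAs reported to target HIF-1 or its regulators, all on the array. Of these 5 were tested and 0 passed limma's test in either direction (the smallest adjusted p in the list was again 0.637, with 0 at an unadjusted p under 0.05), like the fit as a whole. In the fit 1 was higher and 4 were lower, with a median of -0.12, against 97 and 38 of all tested and a median of 0.11. With normexp 4 were higher and 1 lower, against 112 and 23 of all tested. Beside miR-322, reported to lower the HIF-degrading ligase scaffold Cul2, they were miR-20b at -0.19 (SE 0.18), miR-20a at -0.12 (SE 0.17), miR-107, reported to target the HIF-1 partner Arnt, at 0.14 (SE 0.17), and miR-155. miR-17, miR-18a, miR-31, miR-199a-5p and miR-429 were well above background on no array. Of the 5 tested, miR-107, miR-155 and miR-322 were also on the hypoxia-linked list, so the lists are not separate readouts.

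**Figure D5:**
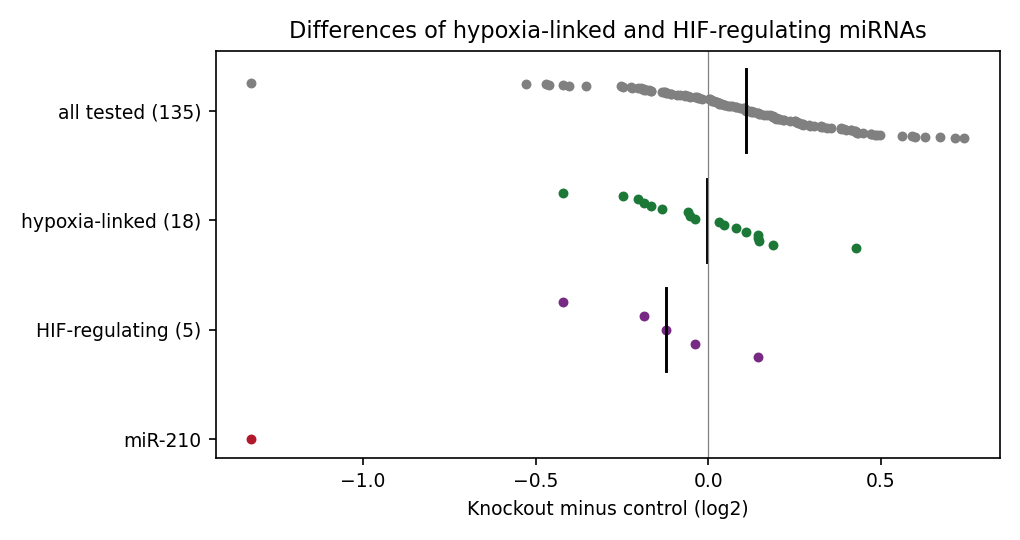
Knockout-minus-control differences (x axis, log2) of all 135 tested miRNAs, the 18 tested hypoxia-linked and the 5 tested HIF-regulating miRNAs, with miR-210 in its own row; each point is 1 miRNA and black bars are medians. The hypoxia-linked miRNAs lie between -0.42 and 0.43 around a median of -0.0040, and miR-210 lies at -1.32. miR-107, miR-155 and miR-322 are in both list rows.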

How the data were processed

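Total RNA (0.5 ug) from each sample was Cy3-labelled for Agilent arrays of design 021828, per the labels and headers. The deposited spot and gene-level intensity values were background-subtracted by the scanner software (Feature Extraction, version 10.5.1.1 per the file headers); the submitters' processing notes name version 9.1. The deposited series matrix holds log2 values made by a between-array step that the sources used here do not name. Against log2 gene totals above a low fixed signal cutoff its columns correlated at 0.999 or more. All columns shared a maximum of 14.74, as after quantile normalization, and their medians ran from 0 to 0.03. Whether a constant was added before the log is unknown.

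Spots flagged as population or non-uniformity outliers were left out and the median taken per probe. Probes with at least 50% of spots marked well above background counted as detected. The scale of an array was its 75th percentile over the 200 probes detected on all arrays. Scaled signals were floored at the 5th percentile of detected signals and taken to log2, where that floor is -4.32. Each miRNA is represented by its probe with the highest mean. Differences are knockout minus control from limma 3.58.1 (R 4.3.3), with no covariate and Benjamini-Hochberg adjustment at 0.05 over 135 miRNAs. Each SE is limma's moderated one. The procedure was tested on simulated data. miRNA names are the array's. miR-210 and the lists were chosen with earlier results of these data known. Named miRNAs are miR-210, miR-155, miR-146a, the 4 largest differences per list, the 5 highest and 3 lowest r, the 5 nearest by distance and the 5 largest control SDs. For non-overlap, let-7e, miR-22*, miR-362-5p and the miRNAs with all knockout arrays above every control were also named after their values were seen. Alternatives covered background, scaling, floor, probe rule, source, filter, blocks and single arrays. The normexp alternative used the median spot signal.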

Additional observations from a re-analysis of the deposited data

How the results depend on the processing

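The miR-210 difference was below 0 under all 20 alternatives run. Blocking by replicate number or slide column, or removing the floor, could not move it and left it at -1.32. Those settings therefore say nothing about its stability. The difference moved by less than 1 within-group SD (0.86) in 19, those settings included, but that SD is miR-210's own and is widened by control replicate 1. Moves to -0.56 with normexp, where the groups overlapped, and to -0.67 without control replicate 1 therefore still counted as within it. Without control replicate 1 and knockout replicate 2 together, chosen after seeing the data, the difference was -0.45. Leaving out 1 array gave -1.78 to -0.67. Probe A_54_P1444 moved in 1 of 13 alternatives, to -0.28 with normexp, and its offset of 50 units exceeds that probe's signal on 5 arrays. Removing the floor could not move this probe either. Calls across all tested miRNAs stayed at 0 in limma under all 22 alternatives, with 1 to 26 miRNAs at an unadjusted p under 0.05 and the most with no scaling; both lists stayed at 0 calls. With replicate number as a block the miR-210 difference was -1.32 (SE 0.37) and 0 miRNAs were called. That SE too borrows from the variances of the other miRNAs. For miR-210 itself, knockout minus control was -2.40, -1.38 and -0.19 between samples numbered 1, 2 and 3. Same-numbered samples correlated in their deviations at 0.17, -0.07 and 0.37, and samples of unlike number at -0.29 to 0.16. These values do not settle whether the numbers are pairs. The labels do not call them pairs, and they were not taken as such. Signal over background limits A_54_P1444 on knockout replicate 2.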
